A study of Rattus norvegicus with 4 samples.

Results

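The livers of the 2 control rats of the study were compared with each other, gene by gene, to describe how far single control animals lay apart at the start of the experiment. The desflurane control (desflurane 0 h) was a wild type rat given desflurane at 6%, and the sevoflurane control (sevoflurane 0 h) was a wild type rat given sevoflurane at 4.5%. Both inhaled the agent, a halogenated anesthetic, only until they lost consciousness, and both were decapitated at that moment. A piece of liver was then kept in RNAlater, and stranded libraries were made from total RNA. The other libraries of the series came from wild type rats kept for 6 h under the same concentration of sevoflurane (sevoflurane 6 h) or desflurane (desflurane 6 h), and their livers were taken 6 h apart from those of the controls. Each of the 4 groups held 1 animal and 1 library, so no value has a replicate error, no p-value was computed, and agent, animal and library cannot be told apart in any difference between the controls. The comparison covered 16985 named genes with a row spanning over 200 bp in every table, which left out 14 symbols that lacked such a row in some table. All 4 libraries entered as levels, and 2 of the 4, the controls, entered the comparison.

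Liver is a tissue whose transcripts move with the hour of the day and with food. The clock proteins CLOCK and BMAL1 drive genes such as *Dbp* and *Nr1d1*, whose products feed back on the loop, and the transcripts of sterol and fatty acid synthesis follow the SREBP transcription factors, which respond to sterols and insulin. Metallothioneins are small proteins that bind zinc and copper, and their genes respond to metals, glucocorticoids and stress.

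Abundance was given as TPM, a transcript abundance scaled for gene length and library size. Hepatocyte transcripts were abundant in both controls. *Alb*, which encodes albumin, stood at 57453 TPM in sevoflurane 0 h and 58868 TPM in desflurane 0 h, *Cps1* of the urea cycle at 1072 and 909, and the cytochrome *Cyp2e1* at 543 and 610. The sevoflurane control was the shallower library, with 3.50 Gb of aligned sequence against 5.29 Gb in desflurane 0 h, so that a gene at 2 TPM was covered 4.72 and 6.90 times on average. The part of this gap in depth in the differences between the controls was not tested.

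A gene was called where its TPM exceeded 2 in the higher library and was more than 2 times that of the other. Of 8263 genes above the minimum in either control, 162 were higher and 66 were lower in desflurane 0 h, which is 2.76% of them in all, 1.96% higher and 0.799% lower. Genes higher in desflurane 0 h made up 71.1% of the calls, but 54.2% after the libraries were scaled by the median of their ratios, which left 109 higher and 92 lower. Only 16 genes were more than 4-fold higher and 5 more than 4-fold lower. The calls nearest to the limit had ratios of 2.002 and 2.001, and the nearest genes outside it 1.996 and 1.998.

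The spread between the controls narrowed as expression grew. Over the 9178 genes with a mean of at least 1 TPM in the controls, the difference of log2(TPM + 1), desflurane 0 h minus sevoflurane 0 h, had a median of 0.11 and quartiles of -0.04 and 0.27. Differences of gene groups are read against this median of 0.11, since 69.2% of the genes lay above 0. The width between the quartiles was 0.42 for 1180 genes with a mean of 1 to 2 TPM, 0.36 for 2 to 5 TPM, 0.31 for 5 to 20 TPM, 0.26 for 20 to 100 TPM and 0.22 for the 708 genes above 100 TPM. The calls followed the same order, with 6.02% of the genes in the lowest of these bands and 0.847% in the highest. Of all 228 calls, 127 had their higher value between 2 and 5 TPM, and 13 had it above 100 TPM. Most calls thus sat where coverage was thin, and *Mt1*, *Mt2A*, *Scd* and *Insig1* were among the few at high levels.

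**Figure D1:**
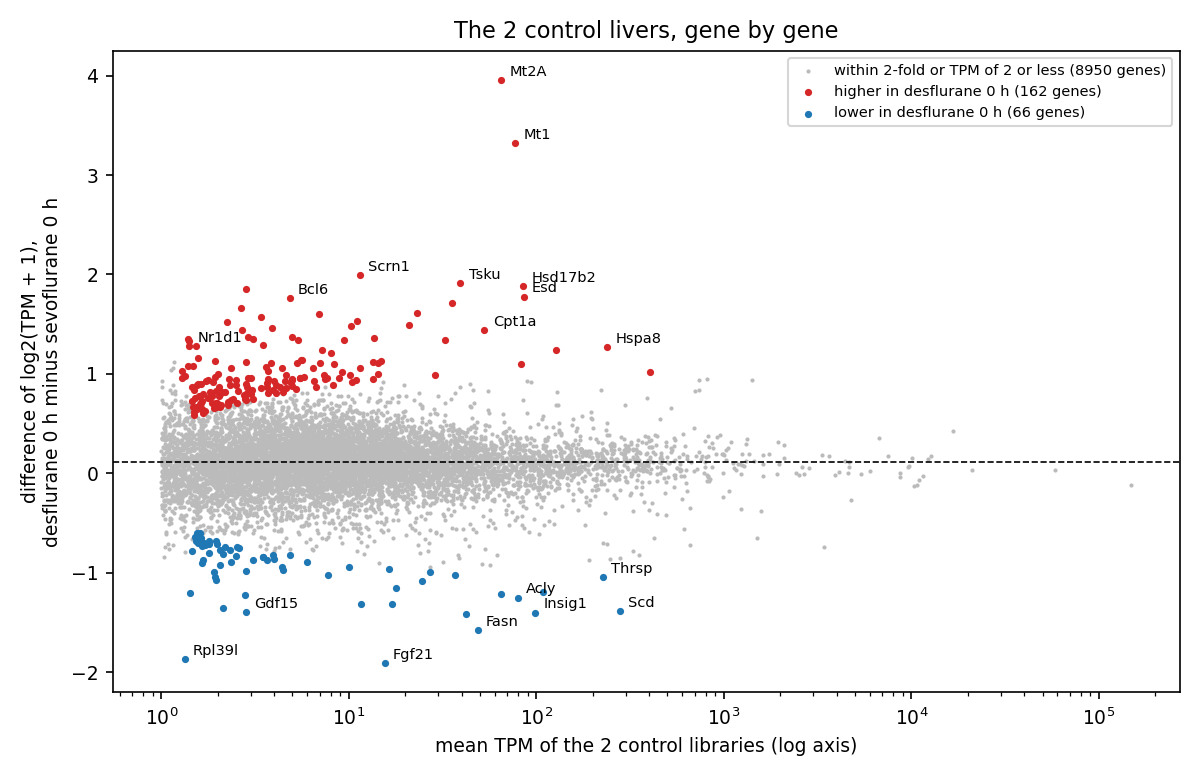
Each point is a gene with a mean of at least 1 TPM in the 2 control livers; the horizontal axis is that mean on a log scale and the vertical axis is the difference of log2(TPM + 1), desflurane 0 h minus sevoflurane 0 h. Red points are the 162 genes called higher, blue points the 66 called lower, and the dashed line is the median of all genes at 0.11, with the metallothionein genes *Mt2A* and *Mt1* at the top at 3.96 and 3.32.

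The metallothionein genes differed more than any other genes called between the controls. *Mt2A*, on the minus strand of chromosome 19 from 11307966 to 11308740 (rn6, as deposited), stood at 6.98 TPM in sevoflurane 0 h, 123 in desflurane 0 h, 580 in sevoflurane 6 h and 948 in desflurane 6 h. *Mt1*, on the same strand from 11301991 to 11303007, stood at 13.2, 140, 424 and 650 TPM in the same order. Both genes were thus lowest in sevoflurane 0 h, higher in desflurane 0 h by 17.6-fold (*Mt2A*) and 10.7-fold (*Mt1*), and higher still in both 6 h livers. Their mean coverage was 16.5 and 31.1 in sevoflurane 0 h and 424 and 484 in desflurane 0 h for *Mt2A* and *Mt1*, so neither value rested on a thinly covered gene. The 2 genes are 4958 bp apart.

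The promoters of this pair are shown because the genes lie side by side and differed together. The windows run from 250 bases before to 50 bases after the start in RefSeq (GRCr8, chr19:10832926-10833225 for *Mt1* and chr19:10838659-10838958 for *Mt2A*, both on the minus strand), and capitals mark the core of the metal response element, TGCACNC or TGCGCNC on either strand, to which the zinc sensor MTF1 binds.
Mt1: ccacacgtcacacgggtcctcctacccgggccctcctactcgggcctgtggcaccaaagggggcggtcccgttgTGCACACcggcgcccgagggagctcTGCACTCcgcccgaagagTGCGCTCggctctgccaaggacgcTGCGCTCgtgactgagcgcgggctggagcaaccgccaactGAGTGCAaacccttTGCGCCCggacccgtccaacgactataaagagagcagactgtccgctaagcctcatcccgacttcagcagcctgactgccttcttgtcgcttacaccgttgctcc
Mt2A: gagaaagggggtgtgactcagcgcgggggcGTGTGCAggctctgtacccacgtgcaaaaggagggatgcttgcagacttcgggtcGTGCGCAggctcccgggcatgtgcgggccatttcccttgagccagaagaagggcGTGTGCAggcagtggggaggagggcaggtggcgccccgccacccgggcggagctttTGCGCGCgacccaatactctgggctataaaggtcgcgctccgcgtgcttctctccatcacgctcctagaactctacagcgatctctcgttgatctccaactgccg
The letters occur 6 times in the window of *Mt1* and 4 times in that of *Mt2A*, and none of these overlaps a match of the other motifs searched (CACGTG, TCACNCCAC, TTATGTAA, TTACGTAA and AGGTCA). Among 33469 RefSeq promoter windows of the same length, 24.2% hold at least 1 match, 0.439% at least 4 and 0.0388% at least 6. A match of letters describes the window and is no evidence of binding in these livers.

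In the zinc list *Mt1* and *Mt2A* were the 2 members called, among 21 genes of which 14 were above the minimum, and 0 were lower, where 1.96% of all genes were higher. With the pair included, the median difference of the 15 members with a mean of at least 1 TPM was 0.21 against 0.11 over all genes. *Slc30a1*, an exporter of zinc whose gene also responds to the metal, stood at 39.7 TPM in sevoflurane 0 h and 36.0 in desflurane 0 h, and at 38.7 and 32.7 in the 6 h livers. *Slc39a14*, an importer of zinc, stood at 47.3, 43.6, 52.6 and 48.3 TPM in sevoflurane 0 h, desflurane 0 h, sevoflurane 6 h and desflurane 6 h. The metallothionein genes *Mt3* and *Mt4*, which are named although they fell outside the rule for naming, were listed at 0 in all 4 libraries.

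Glucocorticoids are inducers of metallothionein genes, and a list of 20 genes of the glucocorticoid response was split between the directions. Of the 18 members with a mean of at least 1 TPM, 10 lay above the median of all genes and 8 below. By the rule 4 members were higher in desflurane 0 h (*Mt1*, *Mt2A*, *Zbtb16* and, named after its value was seen, *Cebpd*) and 1 was lower (*Dusp1*), where 1.96% of all genes were higher and 0.799% lower, with a median of 0.28 over 18 members. *Mt1* and *Mt2A* are themselves members of this list, so its counts and median include the pair and are not separate from it. *Zbtb16*, a transcriptional repressor, stood at 0.665 TPM in sevoflurane 0 h, 3.79 in desflurane 0 h, 8.39 in sevoflurane 6 h and 13.3 in desflurane 6 h. *Dusp1*, a phosphatase of MAP kinases, stood at 24.9, 10.7, 28.2 and 73.1 TPM, so that it was lowest in desflurane 0 h. *Tat*, tyrosine aminotransferase and a liver target of the hormone, stood at 123 and 119 TPM in the controls. *Tsc22d3* and *Per1*, described with the clock genes, also belong to this list and were higher in desflurane 0 h without a call. Counting members with a mean of at least 5 TPM, the median of the list turned to 0.23 below that of all genes, and the sign of its median thus depended on that filter.

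The clock genes differed between the controls in the genes that are high late in the light phase. Of 14 listed members, 2 were called higher and 0 lower, out of 7 above the minimum, where 1.96% of all genes were called higher. Over the 9 members with a mean of at least 1 TPM the median difference was 0.67, and 7 of the 9 lay above the median of all genes. *Nr1d1*, which encodes the repressor REV-ERBα (chromosome 10, 86683875 to 86690815, minus strand, rn6), stood at 0.407 TPM in sevoflurane 0 h, 2.41 in desflurane 0 h, 7.65 in sevoflurane 6 h and 7.95 in desflurane 6 h. Its relative *Nr1d2* (chromosome 15, 8730871 to 8757165, plus strand) stood at 4.21, 8.88, 24.7 and 24.5 TPM. In both genes desflurane 0 h lay between the sevoflurane control and the 6 h livers, which stood close together. The call of *Nr1d2*, at 2.11-fold, did not hold after scaling by the median of ratios, and that of *Nr1d1* rested on a mean coverage of only 0.961 in sevoflurane 0 h.

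The promoter of *Nr1d1* that holds an E-box, the letters CACGTG bound by CLOCK and BMAL1, is shown with that motif in capitals (RefSeq, GRCr8, chr10:84229405-84229704, minus strand, from 250 bases before to 50 after the start).
Nr1d1: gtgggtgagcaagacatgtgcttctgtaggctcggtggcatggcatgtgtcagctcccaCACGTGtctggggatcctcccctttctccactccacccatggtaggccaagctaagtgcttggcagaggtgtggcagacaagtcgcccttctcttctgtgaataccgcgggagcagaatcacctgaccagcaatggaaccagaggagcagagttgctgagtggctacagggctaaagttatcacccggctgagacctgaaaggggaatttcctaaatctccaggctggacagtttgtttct
This window is 1 of 2 in the table for *Nr1d1*, and the other window and that of *Nr1d2* hold no match. Of the late-light members, 13 had a window and 5 of these held CACGTG in at least 1 window, where 7.08% of all 27457 symbols in the table did. For the lights-on genes it was 1 of the 6 with a window. *Arntl* and *Cry1* had no window and were not searched. Members were picked as clock genes, so the share with CACGTG describes the list and not a difference between the controls. It is no evidence of binding in these livers.

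Other late-light genes lay apart without a call. *Tef*, a transcription factor of the same family as DBP, stood at 4.19 TPM in sevoflurane 0 h, 7.25 in desflurane 0 h, 29.1 in sevoflurane 6 h and 19.7 in desflurane 6 h. *Tsc22d3*, which encodes the glucocorticoid-induced leucine zipper, stood at 10.3, 19.5, 31.8 and 22.0 TPM. *Dbp* and *Per1*, chosen after their values were seen because they stayed below the minimum of 2 TPM in both controls, stood at 0.400 and 0.352 TPM in sevoflurane 0 h and at 1.92 and 1.38 TPM in desflurane 0 h. In the 6 h livers *Dbp* reached 87.9 TPM with sevoflurane and 44.8 TPM with desflurane, so that both controls were low for this gene by comparison. The order was the opposite for *Bhlhe40*, a repressor of the loop, at 9.86 and 6.69 TPM in the controls, and for *Cry2*, at 2.57 and 2.09 TPM.

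The genes high around lights on were lower in desflurane 0 h in 5 of the 7 members with a mean of at least 1 TPM, with a median of -0.21, and 6 of the 7 lay below the median of all genes. *Cry1*, a repressor that peaks late in the cycle, was the member called lower, at 4.99 TPM in sevoflurane 0 h, 2.28 in desflurane 0 h, 3.31 in sevoflurane 6 h and 1.51 in desflurane 6 h. Its call was lost with a minimum of 5 TPM. *Arntl*, which encodes BMAL1, stood at 22.6, 17.6, 0.426 and 2.14 TPM, so the controls lay within 1.28-fold of each other and both were far above the 6 h livers. *Clock* stood at 8.73 and 8.83 TPM and *Nfil3*, a repressor of D-box genes, at 17.7 and 15.2 TPM in the controls. The hour of death of either control is not given in the labels, so a difference in hour and a difference between animals cannot be told apart.

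**Figure D2:**
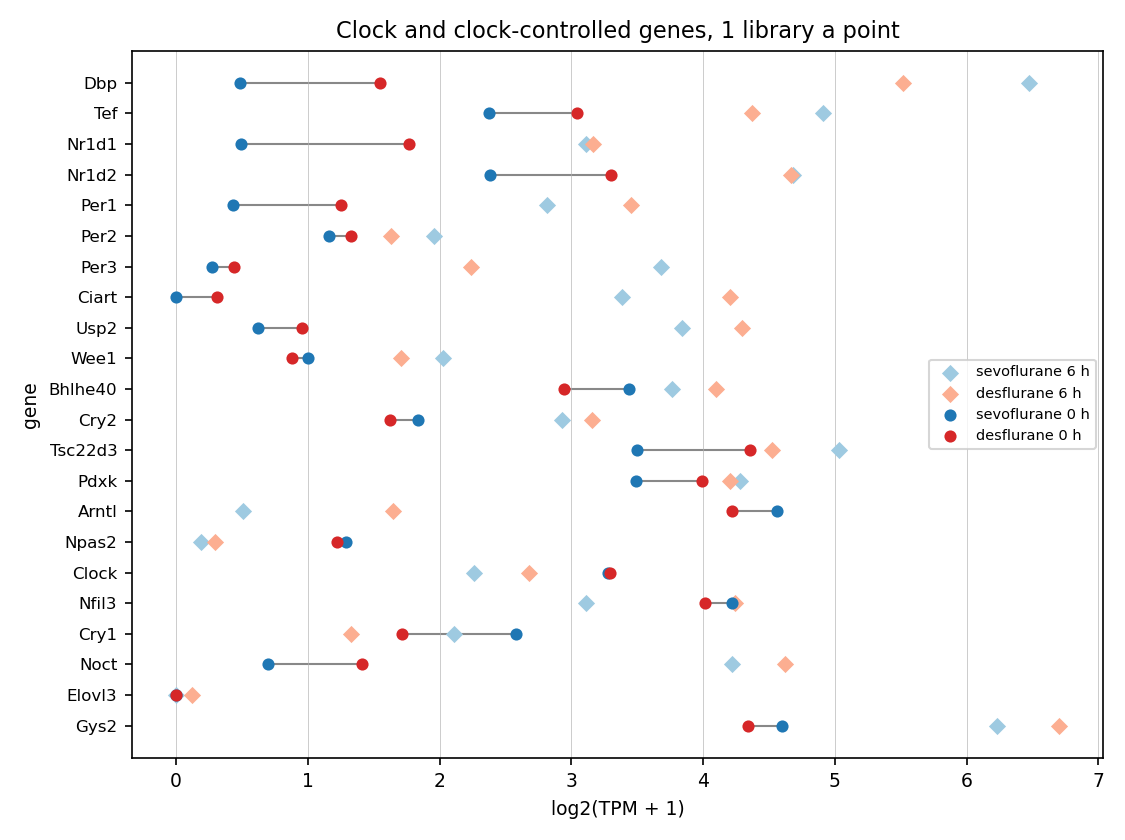
Levels of the 22 clock and clock-controlled genes on the horizontal axis as log2(TPM + 1), 1 library a point: circles are the controls, joined by a line, and diamonds the 6 h livers. *Nr1d1* lies at 0.407 and 2.41 TPM in the controls and close to 8 TPM in both 6 h livers, whereas the controls of *Arntl*, at 22.6 and 17.6 TPM, lie far to the right of its 6 h livers.

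The genes of cholesterol synthesis and the targets of SREBP2 were lower in desflurane 0 h as a group. All 29 members of the list exceeded 2 TPM, and 29 of the 29 lay below the median of all genes, with a median difference of -0.44 and a range from -1.40 to 0.06. By the rule 2 were lower and 0 higher, where 0.799% of all genes were called lower. With a ratio above 1.5 in place of 2, 11 of the 29 were lower and 0 higher, where 2.74% of all genes were lower. The sum over the list was 1829 TPM in sevoflurane 0 h, 1316 in desflurane 0 h, 1047 in sevoflurane 6 h and 1458 in desflurane 6 h.

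*Insig1*, which encodes the anchor that holds SREBPs in the endoplasmic reticulum (chromosome 4, 342302 to 350515, plus strand, rn6), stood at 143 TPM in sevoflurane 0 h, 53.6 in desflurane 0 h, 69.5 in sevoflurane 6 h and 279 in desflurane 6 h. It was thus 2.67-fold lower in desflurane 0 h, and the desflurane liver was the highest of all at 6 h. *Acat2*, which makes acetoacetyl-CoA, stood at 8.02, 3.87, 2.78 and 3.90 TPM and was 2.08-fold lower. Other enzymes of the pathway lay below without a call. *Fdps*, which makes farnesyl diphosphate, stood at 246 TPM in sevoflurane 0 h and 134 in desflurane 0 h, and *Fdft1*, squalene synthase, at 50.1 and 27.2 TPM. These genes, at 1.84-fold for *Fdps*, passed the 2-fold rule only after scaling by the median of ratios. *Hmgcs1*, which opens the pathway, was closer between the controls at 212 and 175 TPM. The members with differences above 0 were *Tm7sf2* (32.5 and 32.8 TPM), a sterol reductase, *Lbr* (4.58 and 4.65 TPM), which shares that activity, and *Scap* (10.2 and 10.7 TPM), the escort of SREBPs.

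Fatty acid synthesis was lower in desflurane 0 h too. Of 21 members, 18 of them above the minimum, 4 were lower by the rule and 0 higher, where 0.799% of all genes were lower, and the median difference of the 19 members with a mean of at least 1 TPM was -0.37, with 17 of the 19 below the median of all genes. *Fasn*, fatty acid synthase (chromosome 10, 109987735 to 110005901, minus strand), stood at 73.3 TPM in sevoflurane 0 h, 24.0 in desflurane 0 h, 33.6 in sevoflurane 6 h and 22.5 in desflurane 6 h. *Scd*, stearoyl-CoA desaturase (chromosome 1, 264160129 to 264172729, minus strand), stood at 402, 153, 386 and 158 TPM. *Acly*, which supplies acetyl-CoA in the cytosol, stood at 112, 46.5, 56.8 and 49.6 TPM. In all 3 genes both desflurane livers lay below both sevoflurane livers, and in *Fasn* and *Acly* the sevoflurane control was well above the other livers. *Thrsp*, a regulator of lipogenesis, stood at 305, 148, 469 and 429 TPM. *Mid1ip1*, which activates acetyl-CoA carboxylase and belonged to no list, stood at 90.6, 38.5, 19.1 and 6.24 TPM. The letters TCACNCCAC of a sterol response element occurred in 0 of the 21 cholesterol members and 0 of the 16 fatty acid members that had a promoter window, where 1.25% of all symbols held them.

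**Figure D3:**
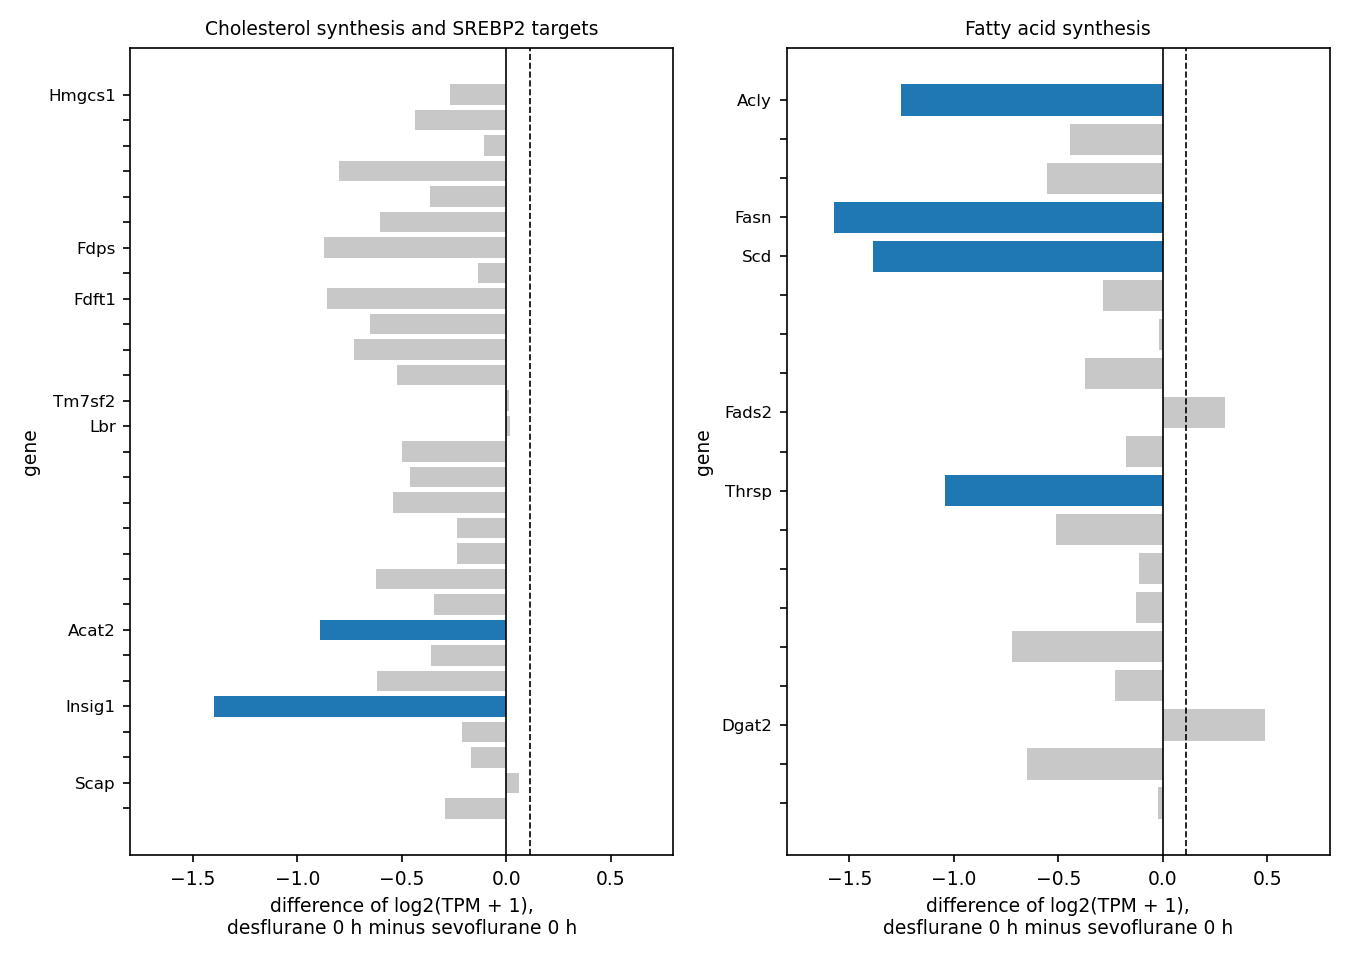
Difference of log2(TPM + 1), desflurane 0 h minus sevoflurane 0 h, for the members with a mean of at least 1 TPM of the lists of cholesterol synthesis (left) and fatty acid synthesis (right); blue bars are genes called lower, grey bars genes not called, names are given for genes the text describes, and the dashed line is the median of all genes at 0.11. All 29 bars on the left end below the dashed line, and on the right *Fads2* and *Dgat2*, named after their values were seen, are the bars that end above it.

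The genes of fasting and fatty acid oxidation did not move one way. Of 25 members 1 was higher (*Cpt1a*) and 1 lower (*Fgf21*), where 1.96% of all genes were higher and 0.799% lower. The median was 0.23 over 23 members. *Cpt1a*, the entry of fatty acids into mitochondria (chromosome 1, 218569510 to 218629679, plus strand), stood at 27.9 TPM in sevoflurane 0 h, 77.6 in desflurane 0 h, 250 in sevoflurane 6 h and 251 in desflurane 6 h. *Fgf21*, a hormone made by the fasted liver (chromosome 1, 101595579 to 101596822, minus strand), stood at 25.1, 5.94, 2.59 and 5.52 TPM, which made it 4.23-fold lower in desflurane 0 h. These genes, which both respond to PPARα, thus differed in opposite directions. The same held within gluconeogenesis for genes chosen after their values were seen and not called, as *Pck1* stood at 527 and 942 TPM and *G6pc* at 361 and 199 TPM in sevoflurane 0 h and desflurane 0 h.

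The genes with the largest differences outside these groups had varied functions. *Scrn1*, which encodes secernin-1, stood at 3.99 TPM in sevoflurane 0 h, 18.9 in desflurane 0 h, 3.92 in sevoflurane 6 h and 1.36 in desflurane 6 h. It was higher in desflurane 0 h than in any of the other livers, and so were *Bcl6*, a repressor tied to growth hormone signalling, at 1.66, 7.99, 2.57 and 2.12 TPM, and the chemokine gene *Cxcl1*, at 0.652, 4.98, 0.365 and 0.0952 TPM. A second set was higher in the 6 h livers as well. *Hsd17b2*, which inactivates estradiol and testosterone, stood at 35.6, 134, 747 and 578 TPM. *Tsku*, a secreted protein made by liver, stood at 16.0, 62.8, 105 and 99.7 TPM, and *Mfsd2a*, a lysophospholipid carrier, at 10.9, 35.2, 149 and 281 TPM. In this set desflurane 0 h held the place between the sevoflurane control and both 6 h livers.

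Among the genes lower in desflurane 0 h, *Rnf125*, a ubiquitin ligase, stood at 62.0 TPM in sevoflurane 0 h, 22.6 in desflurane 0 h, 28.2 in sevoflurane 6 h and 53.9 in desflurane 6 h. *Arrdc3*, an arrestin-like protein, stood at 152, 65.6, 40.2 and 21.6 TPM. *Gdf15*, a stress hormone, stood at 4.53, 1.10, 1.31 and 14.5 TPM, so the desflurane control was the lowest and the desflurane 6 h liver the highest. *Irs3*, an insulin receptor substrate, stood at 3.49, 0.753, 0.168 and 0.422 TPM and *Il7*, a cytokine, at 4.32, 1.28, 1.51 and 0.737 TPM, where the sevoflurane control was the highest liver. *Rpl39l*, which is close in sequence to another ribosomal protein gene so that reads may be split, was at 2.66 TPM in sevoflurane 0 h and listed at 0 in desflurane 0 h.

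Some of these values depend on the column used. The deposited TPM of *Esd*, esterase D, was 38.1 in sevoflurane 0 h and 133 in desflurane 0 h, but recomputed from the deposited coverage it was 24.5 and 24.2. For *Nek6*, a mitotic kinase, the deposited values were 2.92 and 10.9 TPM and those from coverage 0.951 and 1.05. Of the 228 calls, 6 were lost in this way. *Rsl1d1* (17.0 and 6.25 TPM) was summed over 3 rows in sevoflurane 0 h and 1 row in desflurane 0 h and lost its call when only the highest row was used, and *Heatr1* (1.42 and 4.26 TPM), named after its values were seen, had 1 and 2 rows. These were the 2 called genes whose rows differed between the control tables.

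**Figure D4:**
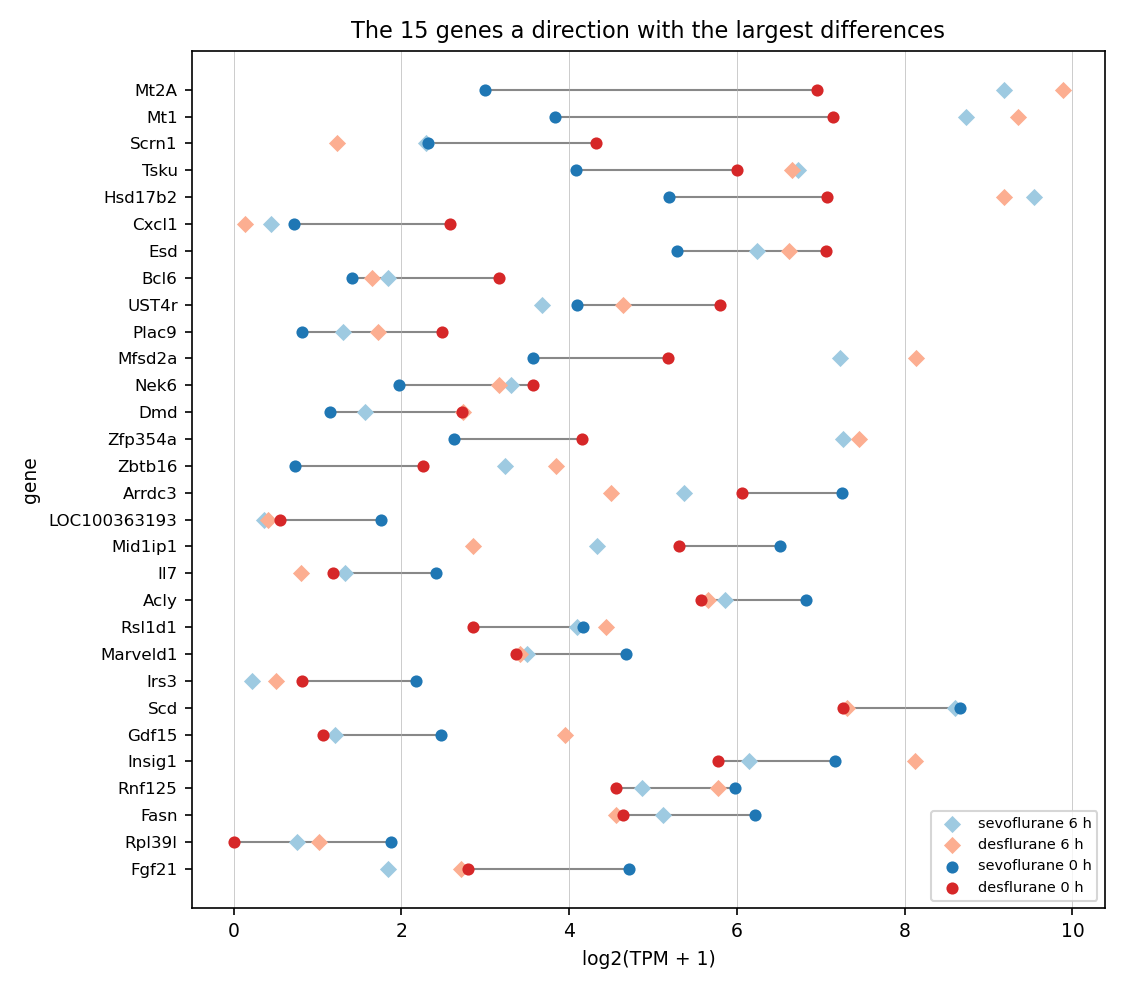
The 15 called genes in each direction with the largest differences between the controls, ordered from higher to lower in desflurane 0 h; the horizontal axis is log2(TPM + 1), circles are the controls, joined by a line, and diamonds the 6 h livers. *Mt2A* spans 6.98 to 123 TPM between the controls, and *Scrn1* and *Cxcl1* are highest in desflurane 0 h, above all the other livers. The genes *Esd*, *Nek6* and *Dmd* are drawn from the deposited TPM and lost their calls when recomputed from the coverage.

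Stress, growth and signalling genes differed singly. Among 22 heat shock proteins and cochaperones, 2 of the 19 above the minimum were higher and 0 lower in desflurane 0 h, where 1.96% of all genes were higher, and the median was 0.19 over 20 members. *Hspa8*, the constitutive HSC70, stood at 139 TPM in sevoflurane 0 h, 337 in desflurane 0 h, 180 in sevoflurane 6 h and 142 in desflurane 6 h, summed over 3 rows that near-identical copies could share. *Dnajb1*, its cochaperone, stood at 7.04, 15.8, 9.57 and 8.03 TPM, so both were highest in desflurane 0 h. Of 20 chaperones of the endoplasmic reticulum 0 were called in either direction, with a median of 0.04.

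Among 26 immediate early genes 2 were higher (*Gadd45a* and *Gadd45g*) and 1 was lower (*Dusp1*), with a median of 0.06. For this list and the others of this paragraph, 1.96% of all genes were higher and 0.799% lower. *Gadd45g*, a growth arrest gene, stood at 17.9 TPM in sevoflurane 0 h, 47.0 in desflurane 0 h, 16.0 in sevoflurane 6 h and 27.6 in desflurane 6 h. *Gadd45a* stood at 4.48, 11.7, 21.5 and 45.9 TPM, and the list of 17 p53 targets that also holds it had 1 lower member, *Bbc3*, at 4.76 and 2.22 TPM in the controls. In the cell cycle list of 25 genes 2 were higher, *Ccnd1* (cyclin D1) at 10.5 and 31.2 TPM and *Ccna2* (cyclin A2) at 0.740 and 2.17 TPM, and 0 were lower. In the growth hormone and IGF list of 18 genes 2 were higher (*Bcl6* and *Cish*) and 1 lower (*Onecut1*, at 2.11 and 0.946 TPM). *Cish*, a feedback inhibitor of the growth hormone receptor, stood at 0.991 and 2.29 TPM. The ATF4 list of 26 genes had 2 higher members, *Phgdh* of serine synthesis at 2.44 and 5.56 TPM and the amino acid carrier *Slc7a5* at 1.17 and 2.53 TPM, and 1 lower, *Gdf15*. The call of *Slc7a5* did not hold after scaling by the median of ratios.

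Transcripts of drug metabolism, secretion and other hepatocyte functions differed in single genes. For every list of this paragraph, the shares over all genes were 1.96% higher and 0.799% lower. Of 38 xenobiotic cytochromes P450 and their regulators 2 of the 33 above the minimum were higher and 0 lower, where 1.96% of all genes were higher, with a median of 0.17. *Cyp2b1*, the phenobarbital-inducible cytochrome, stood at 5.73 TPM in sevoflurane 0 h and 12.1 in desflurane 0 h, against 790 and 465 in the 6 h livers with sevoflurane and desflurane, and *Ahr*, the dioxin receptor, stood at 8.92 and 20.6 TPM in the controls. Among 31 conjugating enzymes and NRF2 targets 1 was higher, *Gsta3*, at 1.23 and 2.87 TPM. Of 20 secreted proteins 0 were called and the median was 0.08. In the acute phase list of 25 genes *Il6r*, the interleukin-6 receptor, was higher at 7.14 and 19.9 TPM, and 0 were lower. Of 18 iron genes the hormone hepcidin, *Hamp*, was higher at 52.5 and 113 TPM. Of 16 bile acid genes *Nr0b2*, the repressor SHP, was lower at 33.5 and 15.3 TPM. In the urea cycle and amino acid list of 26 genes *Sds*, serine dehydratase, was higher at 8.66 and 19.8 TPM, and 20 of the 26 lay below the median of all genes. The list of sex-dependent and sex-linked genes had 3 higher members of 15, 13 of them above the minimum, where 1.96% of all genes were higher. They were *Hsd17b2*, *Sult2a1* (267 and 543 TPM) and *Sult2a2* (3.57 and 7.91 TPM), the latter pair being sulfotransferases with close copies. The calls of *Cyp2b1*, *Hamp* and *Sult2a1* did not hold after scaling by the median of ratios. In each lobular zone list 1 gene was called, *Rnf43* (0.530 and 2.23 TPM) among 18 pericentral genes and *Sds* among 17 periportal genes.

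**Figure D5:**
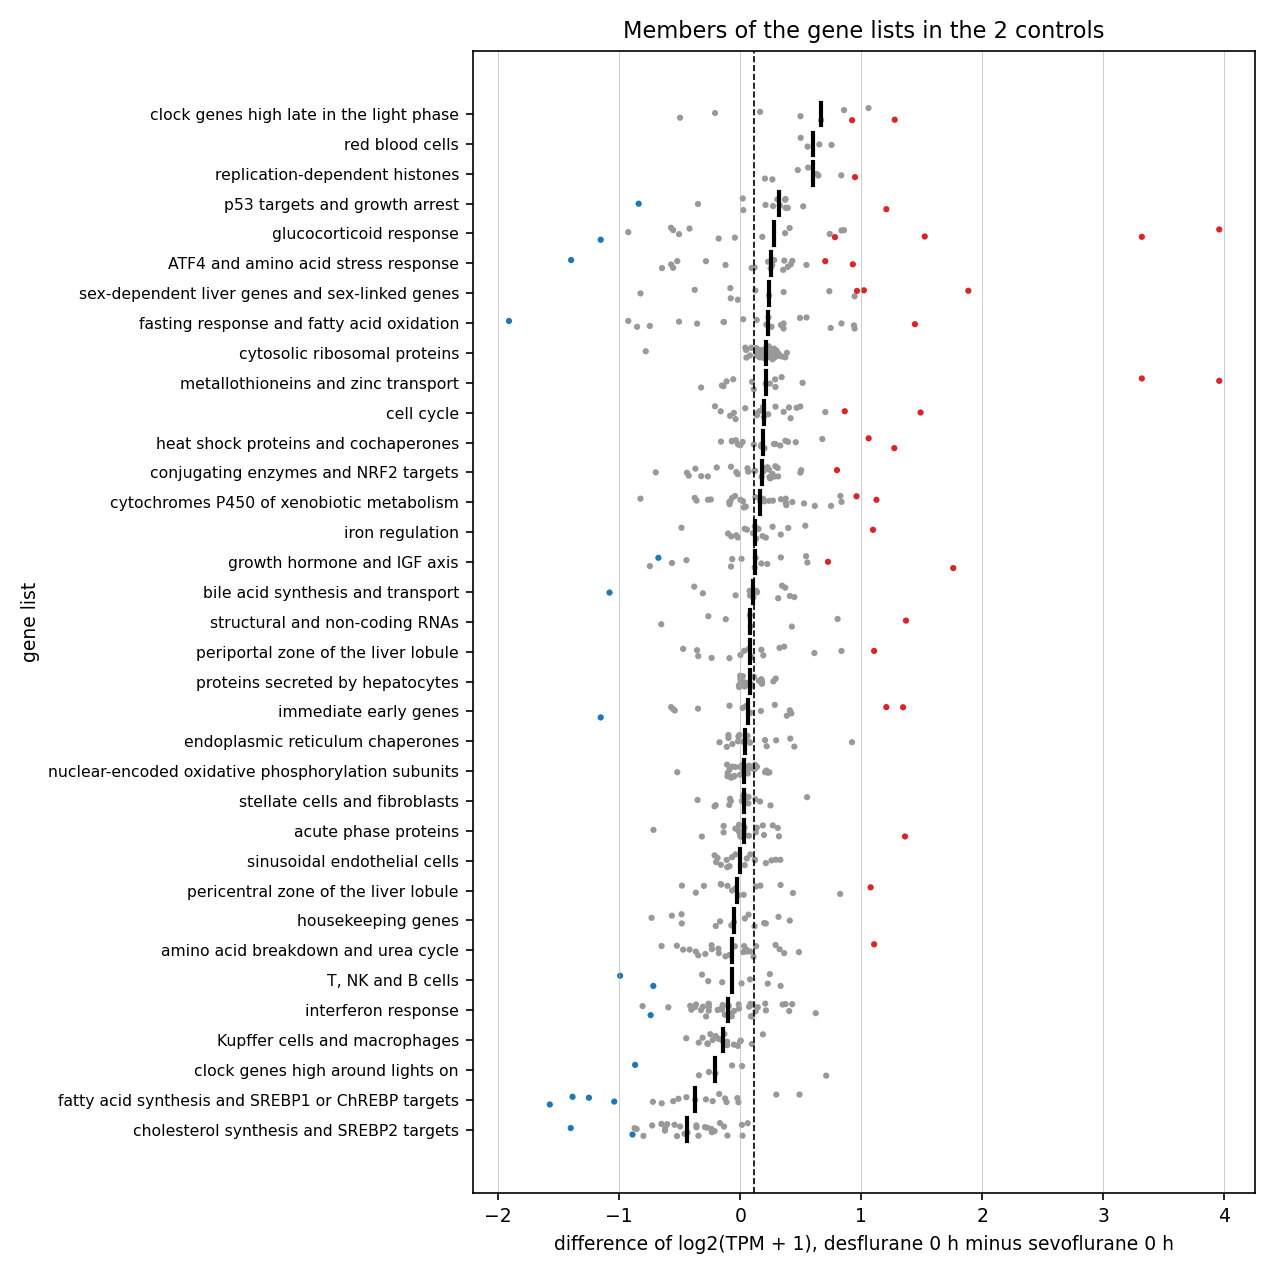
Difference of log2(TPM + 1), desflurane 0 h minus sevoflurane 0 h, of the members with a mean of at least 1 TPM in the 35 lists with at least 4 such members; red and blue points are genes called higher and lower, black bars are list medians and the dashed line is the median of all genes at 0.11. The late-light clock list lies at the top with a median of 0.67 and cholesterol synthesis at the bottom with -0.44.

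Transcripts of other cell types were also set side by side, where 2.76% of all genes were called in either direction. In bulk liver, fewer cells of a type and less RNA per cell cannot be told apart. Of 20 genes of Kupffer cells and macrophages 0 were called and none was at 0 in both controls, but 19 of the 20 lay below the median of all genes, and their summed level was 1090 TPM in sevoflurane 0 h, 995 in desflurane 0 h, 879 in sevoflurane 6 h and 1195 in desflurane 6 h. The 10 listed red blood cell genes summed to 473 TPM in sevoflurane 0 h, 759 in desflurane 0 h, 1262 in sevoflurane 6 h and 1402 in desflurane 6 h. Of these, 0 were called, and the 4 with a mean of at least 1 TPM all lay above the median of all genes, with a median of 0.60. Over the 4 livers the summed red cell level had the same order as *Mt1* and *Mt2A*, and its part in the differences between the controls was not tested.

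Lymphocyte genes were scarce. The 22 listed genes of T, NK and B cells summed to 38.1 TPM in sevoflurane 0 h and 34.5 in desflurane 0 h. Of the 8 above the minimum, 2 cytotoxic genes were lower in desflurane 0 h, where 0.799% of all genes were lower. They were *Nkg7* at 2.87 and 0.942 TPM and *Prf1*, perforin, at 2.36 and 1.04 TPM. Both calls were lost with a minimum of 5 TPM. Of the 10 members with a mean of at least 1 TPM, 5 had a difference above 0 and 5 below, with a median of -0.07. Against the median of all genes, 3 of the 10 lay above and 7 below. The 14 neutrophil genes summed to 5.63 and 8.68 TPM with 5 of them at 0 in both controls, and 11 of 20 pancreatic acinar genes were at 0 in both. Of 18 genes of sinusoidal endothelium, 19 of stellate cells, 10 of bile duct and 9 of fat and mesothelium, 18, 16, 1 and 2 exceeded the minimum and could be called, so that the last 2 lists say little. Of these 0 were called, with medians of -0.0016, 0.03, -0.04 and -0.02. In the interferon list of 42 genes 1 was lower, *Oasl*, at 2.98 and 1.38 TPM, where 0.799% of all genes were lower. Of the 41 with a mean of at least 1 TPM, 32 lay below the median of all genes.

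Genes of basic functions and of library preparation were compared in the same way, where 1.96% of all genes were higher and 0.799% lower. Of 36 nuclear-encoded subunits of oxidative phosphorylation 0 were called, with a median of 0.03, and of 15 housekeeping genes 0 were called, with a median of -0.05. Of 44 cytosolic ribosomal protein genes 0 were called and the median was 0.21, with 37 above the median of all genes and 7 below. Against 0, 43 of the 44 had a difference above it. The exception, *Rps9*, named after its values were seen, stood at 414 TPM in sevoflurane 0 h and 241 in desflurane 0 h and had 2 rows in the first table but 1 in the second. All 8 replication-dependent histone genes, whose transcripts lack a poly(A) tail, lay above the median of all genes, with a median of 0.60 and 1 call, *Hist2h3c2*, at 8.82 and 17.9 TPM. That call did not hold after scaling by the median of ratios. Among 8 structural RNAs 1 was called higher, *Rn5-8s*, at 2.33 and 7.60 TPM, a multicopy gene summed over 2 rows. Beyond the lists, 183 of the 228 called genes belonged to none of the 39.

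The pair of 6 h livers was compared in the same way, since it shares no library with the controls. These livers also differed in the agent inhaled for 6 h, so agent and animal cannot be told apart in this pair either. Between desflurane 6 h and sevoflurane 6 h, 328 of 8229 genes were called, or 3.99%, with 182 higher (2.21%) and 146 lower (1.77%) in desflurane 6 h, and the width between the quartiles was 0.39 against 0.31 between the controls. Of the 162 genes higher in the desflurane control, 14 were also higher in the desflurane liver at 6 h (8.64% of the control list and 7.69% of that at 6 h), and 8 were lower there. Of the 66 genes lower in the desflurane control, 6 were also lower at 6 h (9.09% of the control list and 4.11% of that at 6 h), and 7 were higher. Across 8870 genes with a mean of at least 1 TPM in both pairs, Pearson's r between the differences was -0.0019. Genes within a library are not independent replicates, so r is given as a description. *Scd* and *Cry1* were lower and *Gadd45a* and *Phgdh* higher in the desflurane liver at both times, whereas *Insig1*, *Fgf21* and *Gdf15* were lower at 0 h and higher at 6 h.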

How the data were processed

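RNA was sequenced from 4 rat livers, 1 per group, and groups were taken from the labels. The authors deposited a gene table per library; HISAT2, SAMtools, StringTie and the build rn6 are named in the submitters' processing notes, without versions. The deposited TPM column is handled as a score, because loci assembled from reads already fill the whole TPM total and named genes add between 0.766 and 0.789 of it again. FPKM deposited by the authors differs from TPM by a constant per library (1.48 to 1.57). The deposited coverage is mean depth per base; its ratio to FPKM, constant within 1% for 97.1% to 97.4% of rows above an FPKM of 0.5, gave the aligned bases. No read counts were used, so no counting interval is given.

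Rows of 1 symbol were summed and rows spanning 200 bp or less left out. Differences are on log2(TPM + 1), which understates low genes; list medians use genes with a mean of at least 1 TPM. Named are members of the clock, zinc and cholesterol lists above 2 TPM, the called members of other lists (at most 4 a list), the 15 called genes a direction with the largest differences, the 10 most abundant genes and hepatocyte markers; not all are reported here. The members and lists were chosen with earlier results of these data known. Of the genes, 12226 had a RefSeq promoter window (GRCr8, used for sequence only). The code of the rule was run on simulated data with large changes and a narrow spread at every level. That run checks the code and gives no error rate for these libraries. Python 3.11.15, pandas 2.3.3 and numpy 2.4.6 were used. Alternatives changed the minimum, ratio, pseudocount, scaling, rows and column.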

Additional observations from a re-analysis of the deposited data

How the results depend on the processing

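With 162 genes higher and 66 lower as the reported counts, a minimum of 5 TPM left 77 and 24, no minimum gave 1443 and 892, a ratio above 3 gave 36 and 10, and a ratio above 1.5 gave 646 and 226. FPKM in place of TPM gave 91 higher and 46 lower, of which 91 and 41 were also called with TPM. Both the effective minimum and the scaling between the libraries differ on that column, as TPM is 1.48 times FPKM in sevoflurane 0 h and 1.53 times in desflurane 0 h. Scaling by the median of ratios gave 109 and 92, and rescaling the named rows to the TPM total 169 and 84. Under the median of ratios 6 of the genes chosen for naming lost their call, *Nr1d2*, *Hamp*, *Cyp2b1*, *Sult2a1*, *Hist2h3c2* and *Slc7a5*. Using the highest row, no span filter, or values recomputed from the coverage (an alternative chosen after seeing the data) kept both counts within 1.5 times. The median over all genes was 0.0027 after scaling by the median of ratios. The late-light clock list lay 0.56 above the median of all genes as reported, 0.44 with FPKM and 0.34 with no filter on mean TPM. The glucocorticoid list turned to -0.23 relative to all genes with a mean of at least 5 TPM, the bile duct list, with 2 genes used, to 0.00934 when named rows were rescaled, and the difference of *Esd* to -0.016 when recomputed from the coverage; the cause was not tested. Cholesterol synthesis, fatty acid synthesis and zinc lists moved by less than 0.1 relative to all genes under every alternative run for medians. No paired analysis was possible because each group holds 1 library and the labels give no replicate numbers. Depth limits the low values, most of all in sevoflurane 0 h at 3.50 Gb, and without replicates no difference here is separated from the variation among animals.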

Other observations

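Some genes called between the controls belonged to no list, and all of those named here were chosen after their values were seen, so they stand for no pathway. *Acsm2* and *Acsm5*, medium-chain acyl-CoA synthetases, stood at 4.95 and 4.09 TPM in sevoflurane 0 h and at 11.7 and 9.94 TPM in desflurane 0 h, and in the 6 h livers at 3.39 and 1.42 TPM with sevoflurane and 12.2 and 10.4 TPM with desflurane. Both desflurane livers were thus above both sevoflurane livers for this pair. *Acot3* and *Acot4*, acyl-CoA thioesterases, stood at 1.56 and 5.49 TPM in sevoflurane 0 h and at 3.55 and 11.0 TPM in desflurane 0 h. *Plin5*, a lipid droplet protein, stood at 0.999 and 2.27 TPM.

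The Frizzled receptor gene *Fzd1* stood at 2.24 and 5.06 TPM, *Fzd5* at 1.30 and 3.05 TPM and the planar polarity gene *Prickle1* at 0.596 and 2.37 TPM in sevoflurane 0 h and desflurane 0 h. The chemokine receptor genes *Cxcr4* and *Ackr3* stood at 0.346 and 0.793 TPM in sevoflurane 0 h and at 2.43 and 2.35 TPM in desflurane 0 h. Of 3 called genes of the *Gimap* family of lymphocyte GTPases, *Gimap4* was higher at 1.82 and 3.93 TPM, whereas *Gimap6* was lower at 4.10 and 1.58 TPM and *Gimap7* was lower at 2.08 and 1.03 TPM.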
